A study of Mus musculus with 8 samples.

Results

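GABA-A receptor subunits were read from the counts of ribosome-bound RNA of mu-opioid receptor (MOR) neurons of the paraventricular nucleus of the thalamus (PVT). The 7 subunit genes Gabra2, Gabra3, Gabra4, Gabra5, Gabrb1, Gabrb2 and Gabrd were taken by name from the 18939 genes of the table, and all 7 were found, each with 1 transcript. Mice of genotype OPRM1cre X EGFP-L10a on a C57Bl/6J background, aged 8 to 12 weeks at the start, drank morphine in 0.2% saccharin over 11 days, at a concentration that began at 0.3 and ended at 0.5 mg/ml, and control mice drank 0.2% saccharin without morphine. Every animal of either group carried Cre in the Oprm1 locus and the Cre-dependent tagged ribosomal protein, so cells were tagged wherever Cre had been active, and a dissection aimed at the PVT set the region. The control libraries were numbered 1, 2, 5 and 6 and the morphine libraries 3, 4, 7 and 8. In each group the lower pair of numbers was male and the higher pair female, and each library pooled 2 dissections.

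The GABA-A receptor is a chloride channel in the membrane that opens when it binds GABA, the main inhibitory transmitter of the brain. It is a ring of subunits, usually alpha and beta subunits with a gamma or delta subunit, and the alpha subunit sets where the receptor sits and which drugs act on it. Receptors with the alpha 4 and delta subunits (Gabra4, Gabrd) lie outside synapses and carry the tonic inhibition of thalamic relay neurons, and alpha 5 (Gabra5) is best known from the hippocampus.

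The subunit genes lie in clusters. On GRCm38, Gabra2 (chr5:70958392-71095849), Gabra4 (chr5:71569734-71658308) and Gabrb1 (chr5:71657921-72149572) share a stretch of chromosome 5, with Gabra4 and Gabrb1 head to head. Gabra5 lies on chromosome 7 (chr7:57407669-57591016), Gabrb2 on chromosome 11 (chr11:42419515-42632591), Gabra3 on the X chromosome (chrX:72432676-72656919) and Gabrd on chromosome 4 (chr4:155384979-155398098). These are whole genes with exons and introns, and the counts are of their spliced transcripts. The counted transcript of Gabra4 shared 46 of its 4108 bases with exons of Gabrb1, and that of Gabra5 shared 148 of 2671 bases (5.54%) with exons of the antisense RNA gene Gm9962. Whether the counting used the strand is not stated, so reads in those bases may belong to either gene.

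The sequence just before the start is shown for Gabra5, the subunit whose groups did not overlap, and for Gabrb2, the subunit with the highest level per length. Both are 250 bases from RefSeq on GRCm38.p6, written 5′ to 3′ on the strand of the gene, and end at the base before the transcript start. The Gabra5 window is chr7:57510060-57510309 on the minus strand, and the Gabrb2 window, the first of 3 starts, is chr11:42420190-42420439 on the plus strand. Either start lies inside the outer bounds of its gene given above. Capitals mark matches, on either strand, to the GC box, whose letters are GGGCGG. They also mark matches to the box with the letters TATAAA.
Gabra5: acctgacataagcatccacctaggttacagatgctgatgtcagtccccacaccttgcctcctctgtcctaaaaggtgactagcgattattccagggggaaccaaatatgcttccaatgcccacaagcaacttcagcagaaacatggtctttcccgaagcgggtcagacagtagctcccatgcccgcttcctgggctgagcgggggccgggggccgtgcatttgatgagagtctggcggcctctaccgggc
Gabrb2: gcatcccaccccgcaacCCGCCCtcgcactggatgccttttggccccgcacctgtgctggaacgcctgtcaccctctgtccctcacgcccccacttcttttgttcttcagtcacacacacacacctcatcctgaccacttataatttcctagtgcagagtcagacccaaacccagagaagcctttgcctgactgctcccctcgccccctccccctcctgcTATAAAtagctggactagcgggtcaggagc

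RefSeq windows were found for 6 of the 7 subunits, 10 windows in all. None of the 10 held the cAMP response element TGACGTCA, its first letters TGACG or the E-box CACGTG, which occurred in 1.5%, 17.8% and 6.0% of all 32851 windows. The GC box stood in 3 of 10, against 32.7% of all windows, and TATAAA in 3 of 10, against 12.4%. Both Gabra3 windows overlap and share 1 TATAAA match, so the 3 windows hold 2 separate matches. The element TGACG is part of TGACGTCA, so those counts are not separate. These letters were searched for after the counts had been seen, and a window without them says nothing of the factors that bind there.

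The libraries held 31151103 to 47582947 counts, and every subunit had at least 653 counts in each library. Among markers of the labelled cells, the thalamic transcription factor Tcf7l2 was at 686 to 1359 CPM (counts relative to the TMM-scaled size of the library) and the glutamate transporter gene Slc17a6 at 216 to 350 CPM. The GABA-synthesizing enzyme genes Gad1 and Gad2 were also at 338 to 647 and 362 to 705 CPM, so the RNA held transcripts of GABAergic cells as well. Control 5, labelled female, held Y-linked RNA at 33.8% of the male mean, while the other female libraries were at 0.0443% or below, so fold changes without control 5 are given for each of the 7 subunits. No marker gene of tissue next to the PVT was called by edgeR. The summed CPM of 10 choroid plexus genes was 16.7 to 84.4 in the control and 115 to 381 in the morphine libraries, and that of 8 genes of telencephalic pyramidal neurons was 133 to 401 and 310 to 689, with overlapping groups.

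Levels of different subunits were compared as CPM per kilobase of transcript. In the control libraries Gabrb2, the beta 2 subunit, stood highest with 94.9 ± 6.61 CPM per kb (SD, n = 4), and Gabra4 followed with 50.75 ± 1.82. Gabra3 had 21.6 ± 3.26 and Gabra5 18.2 ± 2.61 CPM per kb. The ranges of this pair overlapped on this scale, but Gabra3 was the higher of the pair within each control library. Per kilobase of coding sequence their control ranges, 44.6 to 64.1 for Gabra3 and 28.6 to 40.3 for Gabra5, did not overlap.

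Gabrd, the delta subunit, had 10.3 ± 1.62 CPM per kb in the control libraries, Gabra2 4.49 ± 0.655 and Gabrb1 2.96 ± 0.248. Each of these had its own range on this scale. The place of Gabrb1 and Gabrd rested on transcript length, since the annotated transcript of Gabrb1 is 13737 bases long and that of Gabrd 1921. Per kilobase of coding sequence, Gabrb1 ranked 5 and Gabrd 7, while the first 4 places were held by Gabrb2, Gabra4, Gabra3 and Gabra5 on either scale.

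The study asked how the RNA of these neurons differs after chronic morphine. Gabra5 stood apart from the other 6 subunits: it was higher in every morphine library than in any control library, by 1.66-fold, with an adjusted P value just above the threshold. Gabrd and Gabra2 had higher means with overlapping groups, Gabra4 and Gabrb2 were slightly higher, Gabrb1 slightly lower, and Gabra3 had the same mean in the 2 groups.

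Over all genes, the quasi-likelihood test of edgeR (P values adjusted by Benjamini-Hochberg) called 0 of the 7 subunits at an adjusted P value under 0.05, against 37 of 18939 genes (0.195%). Gabra5 was the 1 subunit with an unadjusted P value under 0.05, against 12.1% of all genes. By DESeq2 it was 1 of 7 that passed, against 2.63% of all genes, and by limma-voom 0, against 0.121%. The groups did not overlap in 1 of 7 subunits, against 6.54% of all genes. The median log2 fold change was 0.13 over the 7 subunits and 0.0088 over all genes.

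**Figure D1:**
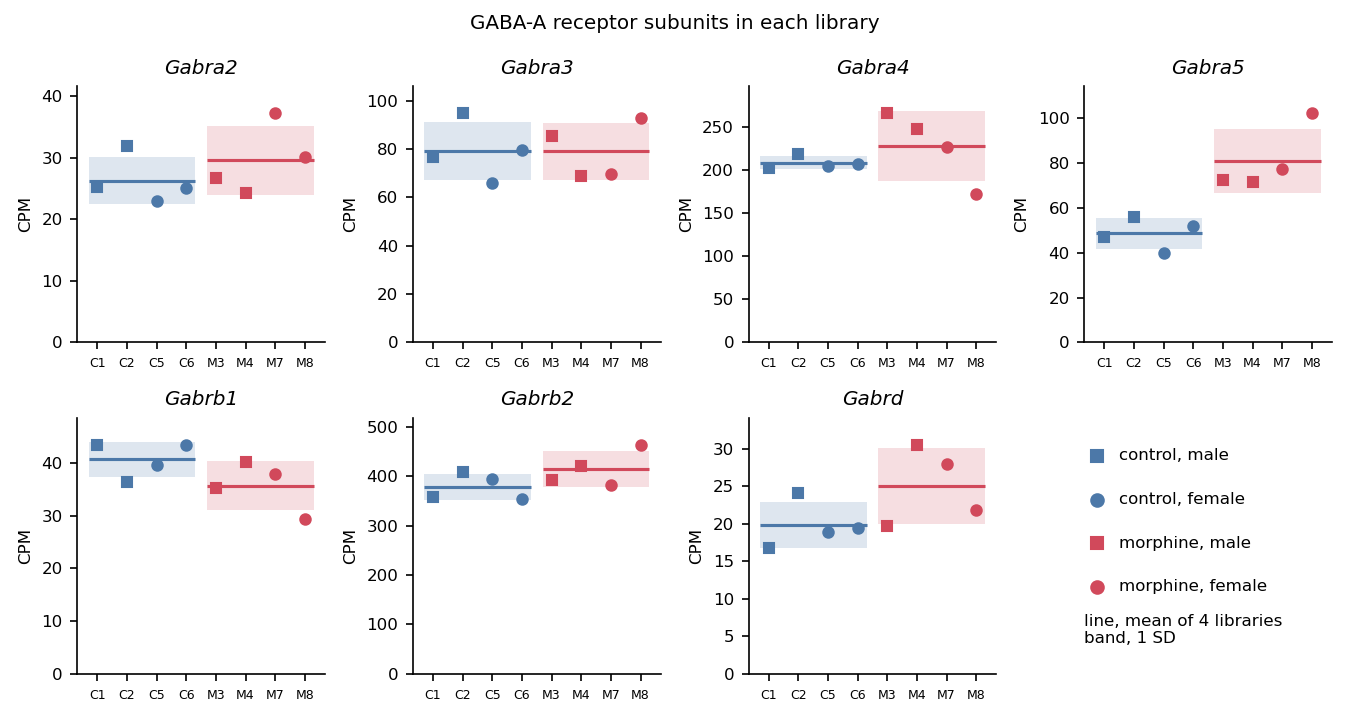
CPM of each subunit (vertical axis, from 0) in the 8 libraries (horizontal axis: C, control; M, morphine; squares, male; circles, female), with the mean of 4 libraries as a line and 1 SD as a band. In Gabra5 the 4 morphine libraries, at 71.5 to 102 CPM, lie above the 4 control libraries, at 39.7 to 56.0 CPM, and in the other panels the groups overlap.

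Gabra5 encodes the alpha 5 subunit, found mostly in receptors outside synapses. It was at 47.1, 56.0, 39.7 and 51.8 CPM in controls 1, 2, 5 and 6, and at 72.5, 71.5, 77.3 and 102 CPM in morphine 3, 4, 7 and 8. Morphine 8 was the highest library by a wide margin, and the other morphine libraries lay close together. The mean was 48.7 ± 6.97 CPM in the control and 80.8 ± 14.3 CPM in the morphine group (SD, n = 4). The log2 fold change came to 0.73 (SE, standard error, 0.14, 95% interval 0.42 to 1.04, adjusted P in edgeR = 0.0643). The exact two-sided permutation test gave P = 0.0286, the smallest value possible with 4 against 4 libraries, and only 0.391% of all genes had a lower P value from edgeR.

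The call of Gabra5 depended on the fit, and its direction did not in any fit that was run. DESeq2 gave a log2 fold change of 0.74 with an adjusted P = 0.00049, and edgeR with sex in the model gave 0.73 with an adjusted P = 0.0495. When single libraries were dropped, the log2 fold change lay between 0.60 (without morphine 8) and 0.81 (without control 2), with edgeR adjusted P values from 0.0507 to 0.183. Without control 5 it was 0.63 (adjusted P in edgeR = 0.102).

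Many marker genes of other tissue also had higher means with morphine. Over 6 genes of hippocampal fields, where Gabra5 is known to be abundant, the summed CPM was 60.6 to 95.1 in the control and 69.9 to 136 in the morphine libraries. Of these, Spink8 was near the floor of the counts, at 0.0256 to 0.180 CPM in the control and 0.365 to 1.79 CPM in the morphine libraries. The groups did not overlap in Spink8 and C1ql2 and overlapped in the others, and Iyd was lower on average (log2 fold change -0.087). The mean was higher with morphine in 5 of the 6 hippocampal genes. It was also higher in 8 of 8 telencephalic, 10 of 10 choroid plexus and 5 of 5 oligodendrocyte genes. The oligodendrocyte genes summed to 78.7 to 750 CPM in the control and 375 to 956 CPM in the morphine libraries. All 6 thalamic markers were lower on average, with a summed CPM of 2004 to 2733 and 1463 to 2686. In none of the marker lists was a gene called by edgeR.

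With the mean log2 level of a marker list added to the edgeR model, the log2 fold change of Gabra5 was 0.60 (SE 0.23) for the telencephalic list, 0.44 (SE 0.23) for the choroid plexus list and 0.23 (SE 0.25) for the hippocampal list. The last fit was chosen after the data had been seen. Gabra5 was not called in any of these fits, in which edgeR called 1, 0 and 0 of all genes. The hippocampal score was 1.99 to 2.28 in the control and 2.69 to 3.73 in the morphine libraries. The choroid plexus score was -0.87 to 1.61 in the control and 1.87 to 3.23 in the morphine libraries. Neither score overlapped between the groups, so a fit with it can hardly tell score and group apart. What part RNA of such tissue had in the level of Gabra5 was not tested, and in bulk RNA more cells of a kind and more RNA per cell cannot be told apart. With the GABAergic list, whose score had nearly the same mean in the 2 groups (difference -0.022), the log2 fold change of Gabra5 was 0.74 (SE 0.15, adjusted P in edgeR = 0.0736).

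**Figure D2:**
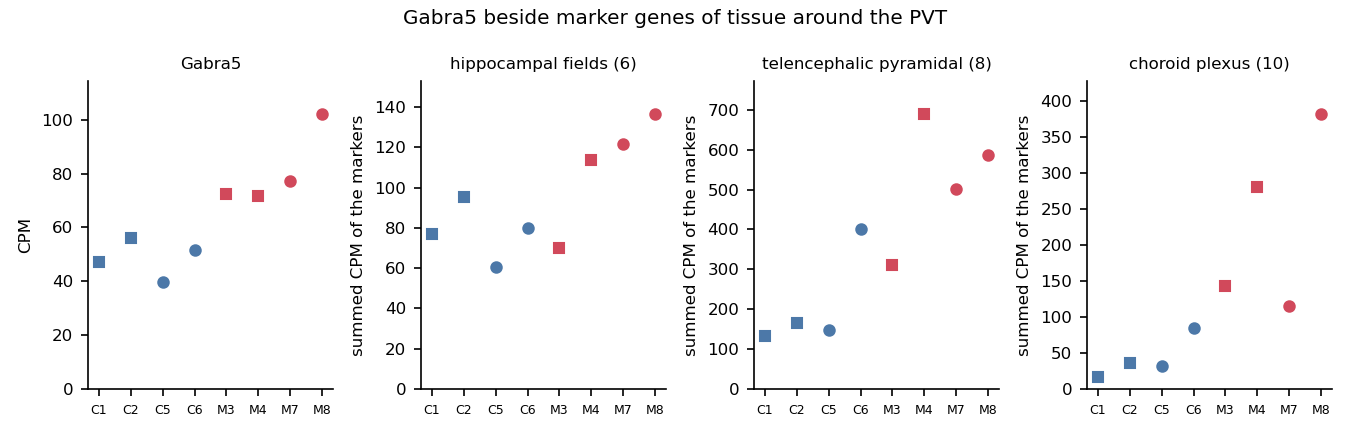
CPM of Gabra5 and summed CPM of 6 hippocampal, 8 telencephalic and 10 choroid plexus marker genes (vertical axes, from 0) in each library (C and blue, control; M and red, morphine; squares, male; circles, female). The choroid plexus sum is 16.7 to 84.4 in the control and 115 to 381 in the morphine libraries, and morphine 8 is highest for Gabra5, the hippocampal and the choroid plexus genes.

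Gabra4 and Gabrd encode the partners of the thalamic receptor outside synapses. Gabra4 was at 203, 219, 205 and 207 CPM in the control libraries and at 266, 248, 227 and 173 CPM in morphine 3, 4, 7 and 8. Of the morphine libraries, 3 lay above every control and morphine 8 lay below every control. The control libraries were thus tight (208.5 ± 7.45 CPM) and the morphine libraries spread (228 ± 40.4 CPM, SD, n = 4). The log2 fold change of 0.13 (SE 0.13, 95% interval -0.14 to 0.40) did not pass the test (adjusted P in edgeR = 0.678). It was 0.24 without morphine 8, 0.049 without morphine 3 and 0.11 without control 5. In the female libraries alone it was -0.045, and in the male ones 0.27. It was 0.69 (SE 0.20, adjusted P in edgeR = 1) with the hippocampal score in the model.

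Gabrd was at 16.7, 24.1, 18.9 and 19.5 CPM in the control libraries and at 19.6, 30.5, 28.0 and 21.8 CPM in the morphine libraries. Control 2 was higher than morphine 3 and morphine 8, and the highest values were those of morphine 4 and 7. The means were 19.8 ± 3.11 and 25 ± 5.09 CPM (SD, n = 4), and the log2 fold change 0.33 (SE 0.16, 95% interval -0.018 to 0.69, adjusted P in edgeR = 0.448). Over the fits that left out a library it lay between 0.22 and 0.44, and it was 0.30 without control 5. With a marker score in the model it was 0.16 (telencephalic), 0.17 (choroid plexus) or 0.20 (hippocampal).

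Gabra2 and Gabra3 encode alpha subunits that are found at synapses and bind benzodiazepines. Gabra2 was at 25.1, 31.8, 23.02 and 25 CPM in the control libraries and at 26.6, 24.2, 37.1 and 30.1 CPM in the morphine libraries. Morphine 7 stood highest and the 2 groups shared much of their range. The log2 fold change came to 0.17 (SE 0.15, 95% interval -0.16 to 0.49, adjusted P in edgeR = 0.677), and it was 0.021 without morphine 7, 0.096 without control 5 and 0.27 without control 2.

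Gabra3 was at 76.6, 94.7, 65.8 and 79.5 CPM in the control libraries and at 85.3, 69.0, 69.5 and 92.6 CPM in the morphine libraries. The groups shared the same range, with means of 79.1 ± 11.9 and 79.1 ± 11.8 CPM (SD, n = 4). The log2 fold change came to -0.00030 (SE 0.13, adjusted P in edgeR = 0.999), and its 95% interval of -0.29 to 0.29 leaves room for a change of up to 1.22-fold. Without control 5 it was -0.094.

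Gabrb1 and Gabrb2 encode beta subunits, which with the alpha subunit form the site where GABA binds. Gabrb1 was at 43.4, 36.3, 39.5 and 43.3 CPM in the control libraries and at 35.3, 40.1, 37.9 and 29.4 CPM in the morphine libraries. Morphine 8 was lowest and the others lay within or near the control range. Its log2 fold change was -0.19 (SE 0.11, 95% interval -0.44 to 0.064, adjusted P in edgeR = 0.561), and it was -0.11 without morphine 8 and -0.22 without control 5.

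Gabrb2, the most abundant of the 7 by either length, was at 358, 408, 394 and 355 CPM in the control libraries and at 392, 420, 383 and 463 CPM in the morphine libraries. It varied least among the subunits: the SD of log2 CPM over the 8 libraries was 0.13, against 0.44 for Gabra5. The log2 fold change came to 0.13 (SE 0.099, 95% interval -0.085 to 0.35, adjusted P in edgeR = 0.635). It was 0.074 without morphine 8, 0.079 without control 6 and 0.14 without control 5. The pair Gabra4 and Gabrb1, whose starts lie side by side, thus had log2 fold changes of opposite sign, neither of which passed the test, and both genes were lowest in morphine 8.

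**Figure D3:**
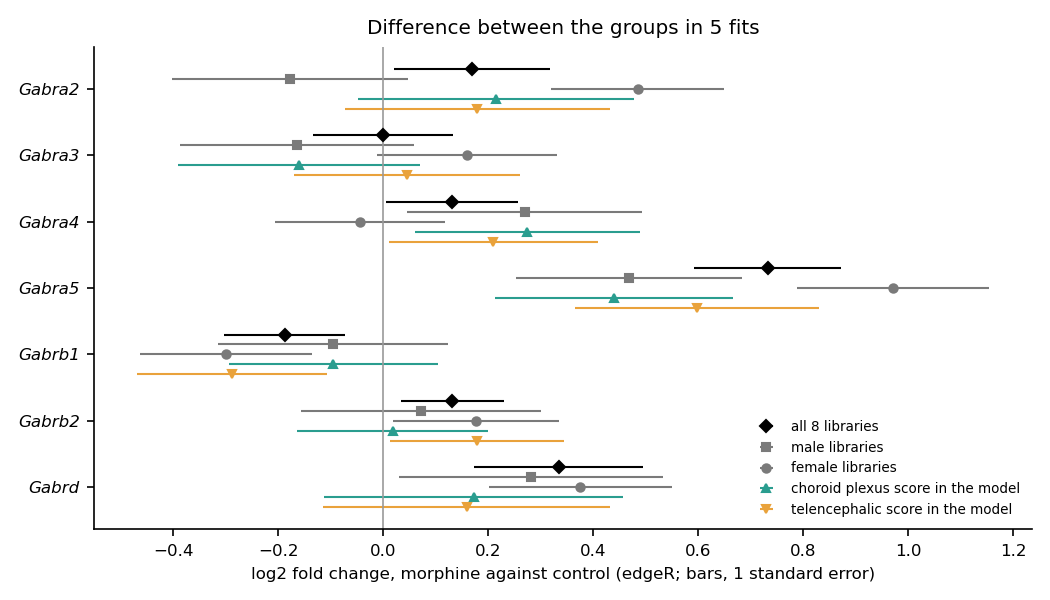
Log2 fold change of morphine against control (horizontal axis, with 1 standard error) for each subunit in 5 edgeR fits: all 8 libraries, male or female libraries alone, and with a choroid plexus or a telencephalic marker score in the model. Gabra5 lies above 0 in the 5 fits, from 0.44 to 0.97, and the other subunits lie nearer to 0 than Gabra5 in each fit shown, Gabra2, Gabra3 and Gabra4 on either side of it. In the fit with the hippocampal score, which is not drawn, Gabra4 was at 0.69 and Gabra5 at 0.23.

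The alpha subunits were also set against each other within each library, as shares of the summed CPM per kb of Gabra2, Gabra3, Gabra4 and Gabra5. These shares leave out other alpha subunits and are given as a description. Gabra5 made up 17.2% to 20.2% in the control and 22.7% to 34.5% in the morphine libraries, with means of 19.1% ± 1.36 and 27.0% ± 5.25 (SD, n = 4). Gabra4 made up 53.6% ± 2.94 and 49.3% ± 7.79, and Gabra3 22.6% ± 1.52 and 19.2% ± 2.67. Gabra2 held 4.70% ± 0.308 and 4.50% ± 0.957. In morphine 8 Gabra5 reached 34.5% and Gabra4 fell to 38.0%. Counted per kilobase of coding sequence, the share of Gabra5 was 13.37% to 15.88% in the control and 17.98% to 27.95% in the morphine libraries, so the groups did not overlap on this scale either.

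**Figure D4:**
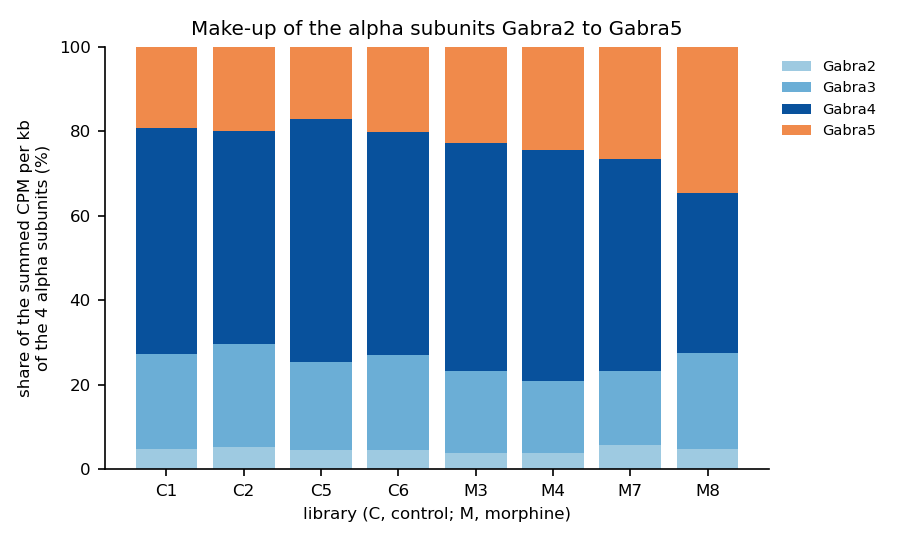
Share (%) of Gabra2, Gabra3, Gabra4 and Gabra5 in the sum of their CPM per kb (vertical axis) in each library (horizontal axis). Gabra4 is the largest part in each library, 38.0% to 57.6%, and the part of Gabra5 at the top of the bars is wider in the 4 morphine libraries, 22.7% to 34.5%, than in the controls.

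The female libraries were set against the male ones in a model that also held the condition. edgeR called 0 of the 7 subunits and DESeq2 0, and 0 had an unadjusted P value under 0.05. Of all genes edgeR called 0.00528% and DESeq2 0.137%, and 3.1% had an unadjusted P value under 0.05. The log2 differences of female against male lay between -0.20 for Gabra4 (SE 0.12) and 0.078 for Gabra2 (SE 0.15). Control 5, with Y-linked RNA at 33.8% of the male mean, counted as female here. Without it edgeR also called 0 of the 7 subunits between the sexes.

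The sizes within each sex rest on 2 libraries against 2. Gabra5 had means of 51.6 CPM (control) and 72.0 CPM (morphine) in the male and of 45.8 and 89.6 CPM in the female libraries, log2 fold changes of 0.47 (SE 0.21) and 0.97 (SE 0.18), of which neither was called within a sex. The interaction of sex and morphine was 0.49 on the log2 scale (SE 0.26, adjusted P in edgeR = 1), and 0.31 without control 5. Gabra2 was lower with morphine in males (28.5 and 25.4 CPM) and higher in females (24.0 and 33.6 CPM). Its interaction of 0.65 (SE 0.26, adjusted P = 1 in edgeR) was under 0.05 before adjustment, and without control 5 it was 0.59 and no longer so. For the interaction edgeR called 0 of 7 subunits and 0% of all genes, with 1 subunit (Gabra2) and 1.72% of all genes at an unadjusted P value under 0.05. DESeq2 called 0 subunits and 0.0211% of all genes.

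The rest of the GABA system was taken from lists of 51 partner genes in 8 roles, all 51 of which were in the table. edgeR called 0 of the 51, against 0.195% of all genes, and limma-voom called 0, against 0.121%. At an unadjusted P value under 0.05 in edgeR, 5 were higher and 6 lower, against 6.79% and 5.31% of all genes. DESeq2 called 3 of the 51, against 2.63% of all genes, among them Shisa7, which was higher, and Hap1, which was lower. Over the 51 genes the median change was 0.046 on the log2 scale.

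Of 12 other GABA-A receptor subunits, 2 were higher and 2 lower at an unadjusted P value under 0.05. The lower pair, Gabre and Gabrq, encode the epsilon and theta subunits, which are sparse in most of the brain. Gabre was at 1.46, 1.58, 0.741 and 1.93 CPM in the control and 0.478, 0.636, 0.844 and 0.678 CPM in the morphine libraries, a log2 change of -1.11 (SE 0.32, adjusted P in edgeR = 0.188). Gabrq had 2.08 to 5.47 CPM in the control and 2.36 to 2.99 CPM in the morphine libraries (adjusted P in edgeR = 0.384). Control 5 was the lowest control library for both.

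Of the genes that make GABA and load it into vesicles, Gad2, a GABA-synthesizing enzyme, had a log2 fold change of -0.42 (SE 0.18, adjusted P in edgeR = 0.381) and Gad1 -0.20 (SE 0.19). Of the genes of uptake and breakdown, Aldh5a1 had -0.35 (SE 0.13, adjusted P in edgeR = 0.317) and Abat, the GABA transaminase, -0.33 (SE 0.15, adjusted P in edgeR = 0.427). None of these 4 passed the test, and in each the groups overlapped.

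Among 15 genes of receptor assembly and trafficking, Hap1 and Shisa7 had the lowest P values. Hap1, a huntingtin-associated protein that carries receptors along microtubules, was at 846, 621, 523 and 731 CPM in the control and 399, 377, 442 and 368 CPM in the morphine libraries. All morphine libraries lay below all controls, with a log2 fold change of -0.78 (SE 0.14, adjusted P in edgeR = 0.0569, DESeq2 adjusted P = 0.00013). Shisa7, an auxiliary subunit of the receptor, was at 24.3, 29.6, 20.7 and 24.3 CPM in the control and 27.7, 61.2, 44.9 and 52.6 CPM in the morphine libraries. Morphine 3 was within the control range and the other 3 were well above it, with a log2 fold change of 0.91 (SE 0.21, adjusted P in edgeR = 0.107, DESeq2 adjusted P = 0.0036). With the hippocampal score in the model it was 0.23 for Shisa7 and -0.59 for Hap1. Without control 5 Hap1 was called (-0.90, adjusted P in edgeR = 0.0398), and without morphine 3 Shisa7 was (1.10, adjusted P in edgeR = 0.0216).

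Of the 6 genes of the scaffold and adhesion of inhibitory synapses, Gphn, which encodes gephyrin, had 87.6 ± 9.25 and 86.0 ± 9.69 CPM, and the adhesion gene Nlgn2 194 ± 41.3 and 197 ± 36.2 CPM (SD, n = 4). In that group Slitrk3 had the lowest P value, with a log2 fold change of 0.29 (SE 0.12, adjusted P in edgeR = 0.360), and Insyn1, listed under its older name 6030419C18Rik, followed with 0.14 (SE 0.11). Of the genes of chloride transport, Slc12a2, which takes chloride into the cell, had 0.45 (SE 0.24, adjusted P in edgeR = 0.491), while the channel gene Clcn2 had 0.22 (SE 0.23). Of the glycine receptor subunits, Glrb had 0.40 (SE 0.20, adjusted P in edgeR = 0.471) and Glra2 -0.22 (SE 0.16). Of the modulators, Dbi, which binds the benzodiazepine site, had 0.28 (SE 0.13, adjusted P in edgeR = 0.412) and Akr1c14, of neurosteroid synthesis, -0.92 (SE 0.38, adjusted P in edgeR = 0.355) at 0.185 to 0.769 CPM.

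**Figure D5:**
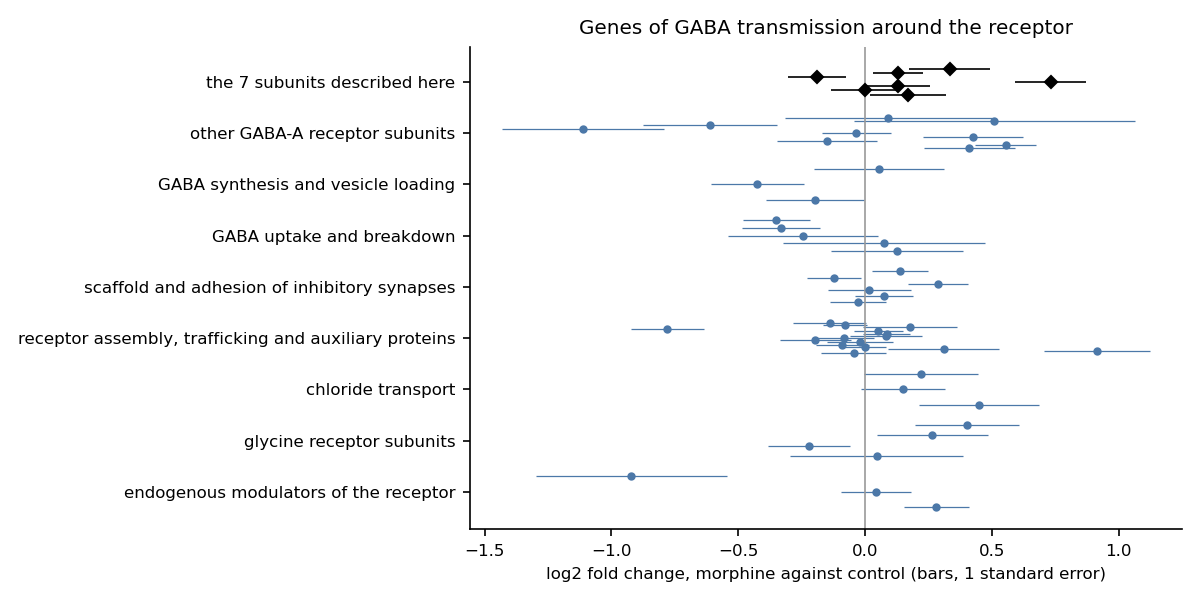
Log2 fold change of morphine against control with 1 standard error (horizontal axis) for the 7 subunits (diamonds) and for genes of 8 roles in GABA transmission (circles). Genes with fewer than 10 counts in every library are left out. Gabra5 at 0.73 is the rightmost diamond, Shisa7 lies at 0.91, and Gabre at -1.11, Akr1c14 at -0.92 and Hap1 at -0.78 are the leftmost circles, and 0 of the genes shown were called by edgeR.

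The genes most like each subunit were those with the smallest root-mean-square difference of log2 CPM, each centred on its mean over the 8 libraries, among 12982 genes with at least 1 CPM on average. For Gabra5 they were Mfsd4 (0.118) and Tmem200a (0.130), against a median of 0.457 over all those genes. Both were higher with morphine, by log2 fold changes of 0.83 and 0.57. For Gabrd they were Pwwp2b (0.106) and Lrrtm3 (0.112), and for Gabrb2 Nrg3 (0.0434) and Plxdc2 (0.0444). Gabra3 was nearest to Tmtc2 (0.0650) and Cntn6 (0.0739), Gabrb1 to Atxn1l (0.0448) and Prkdc (0.0519), and Gabra2 to Tmem20 (0.123) and Dclre1a (0.125). Gabra4 was nearest to Brca2 (0.0676) and Dusp12 (0.0778). Likeness over 8 libraries says nothing of shared function.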

How the data were processed

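Libraries of RNA bound to tagged ribosomes were made from PVT dissections of 4 control and 4 morphine pools, and sequenced as paired 50-base reads after a directional kit. The authors deposited whole-number read counts per RefSeq transcript, not normalized, without naming the counter of this table (mm10, per the labels). Their methods describe Salmon, tximport and DESeq2. No sequencing batch is given. Of the transcripts of a gene, the 1 with most counts over all libraries stood for it. Counts were normalized with TMM and tested with edgeR 4.0.16 (R 4.3.3, glmQLFit and glmQLFTest) over all 18939 genes with a count above 0, without sex, as in the methods. Standard errors were derived from the quasi-likelihood F statistic. DESeq2 1.42.0, limma-voom (limma 3.58.1), other scalings, filters, sex, marker scores (means of log2 CPM, prior count 2), libraries of 1 sex and leaving out each library were alternatives. Exact tests used log2(CPM + 0.5) over 70 arrangements. No pair of libraries agreed within sampling noise (chi-square per degree of freedom 17.2 or more). All 8 columns were used. The tests were checked on simulated counts. Transcript lengths are of GENCODE M21 (GRCm38) transcripts matched by RefSeq accession, whose version in the deposited table is not given. Protein sequences were not used here. Positions and windows before the start are those of RefSeq on GRCm38.p6.

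The members, partner lists and marker lists were chosen with earlier results of these data known. Named are the 7 subunits, and in each role of the partner genes any called gene and the 2 with the lowest P value, and for each subunit the 2 genes most like it. Gabrq, Tcf7l2, Slc17a6, Spink8, C1ql2, Iyd, Gphn and Nlgn2 were named after their values were seen. Each library is a pool of 2 dissections. Some partner genes are counted but not reported here by name.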

Additional observations from a re-analysis of the deposited data

How the results depend on the processing

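No paired analysis was possible because the groups share no replicate numbers. The alternatives moved the number of genes called most. Against 37 genes, edgeR called 110 with sex in the model, 22 with transcripts summed, 14 after filterByExpr, 15 among genes that had 10 or more counts throughout, 151 in the male and 3 in the female libraries, 1 with the telencephalic and 0 with the choroid plexus or hippocampal score (1302, 628 and 622 at an unadjusted P value under 0.05). limma-voom called 23, DESeq2 498, and DESeq2 with sex 449. Leaving out libraries gave 0 to 77, with 0 without morphine 4 or morphine 8 (1696 and 1664 at an unadjusted P value under 0.05), 1 without control 1, 11 without morphine 7, 20 without control 5 and 77 without control 6 or morphine 3. Of the 7 subunits 1 (Gabra5) was called by DESeq2, by DESeq2 with sex and by edgeR with sex, and 0 in each fit that left out a library (0 to 0). Of the partner genes, DESeq2 called 3, DESeq2 with sex 3 and edgeR with sex 1 (Hap1), and leaving out libraries gave 0 to 2. Between the sexes, where edgeR called 1 gene, DESeq2 called 26, filterByExpr left 0, and leaving out libraries gave 0 to 5. For the interaction, with 0 called, DESeq2 called 4 and leaving out libraries gave 0 to 5. DESeq2 with sex and the hippocampal score were chosen after seeing the data.

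Gabra5 and Gabrd kept their sign in 24 of 24 alternatives. Gabra3, near 0, changed sign with RLE factors (0.0026), DESeq2 (0.0027, with sex 0.0068), limma-voom (0.00089), 10 or more counts (0.0039), sex (0.0041), summed transcripts (0.00031), female libraries (0.16) and the telencephalic score (0.046), and lay between -0.094 and 0.098 with libraries left out. Gabra2 changed sign in males (-0.18), Gabra4 in females (-0.045), and Gabra2 (-0.071), Gabrb1 (0.091) and Gabrb2 (-0.086) with the hippocampal score, the cause of which was not tested. None of these values passed the test. The other scalings moved the median log2 fold change of all genes to between -0.015 and 0.012.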
